A study of Mus musculus with 9 samples.

Results

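Elf3, Elf5, Ehf and Spdef are the ETS transcription factors that were named for their expression in epithelia, and their transcripts were followed in cultured mouse kidney cells treated with TNF alone or with an inhibitor of NF-kB signalling. They are 4 of the 57010 genes in the count table. They were listed by name as the epithelial ETS genes, and the set was also selected on the measured fall of Elf5 between PBS and TNF in these libraries. The difference between TNF and PBS is therefore given for them as a description, with no test. Of the 4 genes, 3 had enough counts to be tested, and Spdef did not.

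ETS factors share a winged helix-turn-helix domain that binds DNA at sites with a GGAA core. Elf3, Elf5 and Ehf form the epithelium-specific branch of the family together with the more distant Spdef. In mice, Elf5 is needed for the alveolar cells of the mammary gland and for trophoblast stem cells, and in the kidney it marks principal cells, which take up sodium and water in the collecting duct. Elf3 acts in the differentiation of the intestinal lining in mice, and in human cells it is known as a gene that inflammatory cytokines induce through NF-kB. Ehf acts in stratified and glandular epithelia, and Spdef drives the maturation of goblet and Paneth cells in mouse intestine.

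The cells came from whole kidneys of wild-type mice, digested with Liberase, grown as a mixed primary culture and replated before treatment. The 3 groups of 3 libraries were treated for 6 h with PBS, with TNF at 20 ng/mL, or with the same dose of TNF and 1 µM ACHP, which inhibits the kinase that activates NF-kB. No group received ACHP without TNF, and the labels do not say whether replicates came from different animals, so p-values measure the spread between these libraries, which may be technical. Libraries held 14194295 to 20892176 counts. Vcam1, the adhesion molecule the study is about, stood at 19.2 ± 1.30 CPM in PBS, 93.0 ± 6.99 with TNF and 21.1 ± 2.78 with ACHP added (CPM, counts per 1000000 scaled by TMM, SD, n = 3). Nfkbia, which encodes the NF-kB inhibitor IkBa, stood at 37.4 ± 2.14, 82.7 ± 5.26 and 50.0 ± 2.18 CPM.

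Transcripts of general epithelial genes were abundant in the culture. The summed level of 23 epithelial junction, keratin and surface genes was 8376 to 8701 CPM in PBS, 8317 to 8437 with TNF and 8628 to 9051 with ACHP added. Among 14 genes of the collecting duct principal cell, 10 were tested, and the defining water channel Aqp2 was at 0 in every library. Avpr2, the vasopressin receptor, had 2 counts in all, although most of its exon length is shared with Arhgap4, where the counting drops reads. Genes of intercalated cells, the other cell type of the collecting duct, summed to at most 0.595 CPM in any library. Bulk RNA cannot tell fewer cells of a type from less RNA per cell, and this holds for every level below.

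The libraries also differed in transcripts of neurons and glia, cell types that are no part of kidney epithelium. Summed over 16 markers these were 98.9, 261 and 243 CPM in PBS replicates 1 to 3, 153, 196 and 172 CPM with TNF, and 86.7, 90.3 and 88.6 CPM with ACHP added. All 3 TNF libraries and PBS replicates 2 and 3 stood above 150 CPM, and the ACHP libraries and PBS replicate 1 stood below. The share of this difference in any comparison of ACHP with TNF cannot be told apart from that of the inhibitor, because the groups divide in the same way. Macrophage markers were also lower with ACHP, at 22.9 to 24.6 CPM summed over 9 genes against 39.4 to 41.8 CPM with TNF and 37.3 to 40.7 CPM in PBS.

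Elf5 (ENSMUSG00000027186, chr2:103242033-103281334, plus strand, GRCm39) was the least abundant of the 3 genes tested and the one with the largest differences between groups. It stood at 5.29, 5.85 and 6.06 CPM in PBS, from 75, 105 and 112 counts. With TNF it stood at 1.92, 2.00 and 2.37 CPM, from 35, 30 and 37 counts. With ACHP added it stood at 2.45, 3.20 and 2.93 CPM, from 40, 67 and 46 counts. The 3 groups did not overlap. Every PBS library was above every treated library, and the lowest ACHP library lay just above the highest TNF library. The mean was 5.74 ± 0.397 CPM in PBS, and TNF left 36.6% of it, a log2 difference of -1.46 (SE 0.18). Of all genes tested, 23.8% had TNF and PBS libraries that did not overlap, 11.5% with TNF lower and 12.3% with TNF higher. Of the 429 genes called lower with TNF over the whole table, 3 had a larger fold difference than Elf5, which describes the choice of the gene and is not a result about it.

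**Figure D1:**
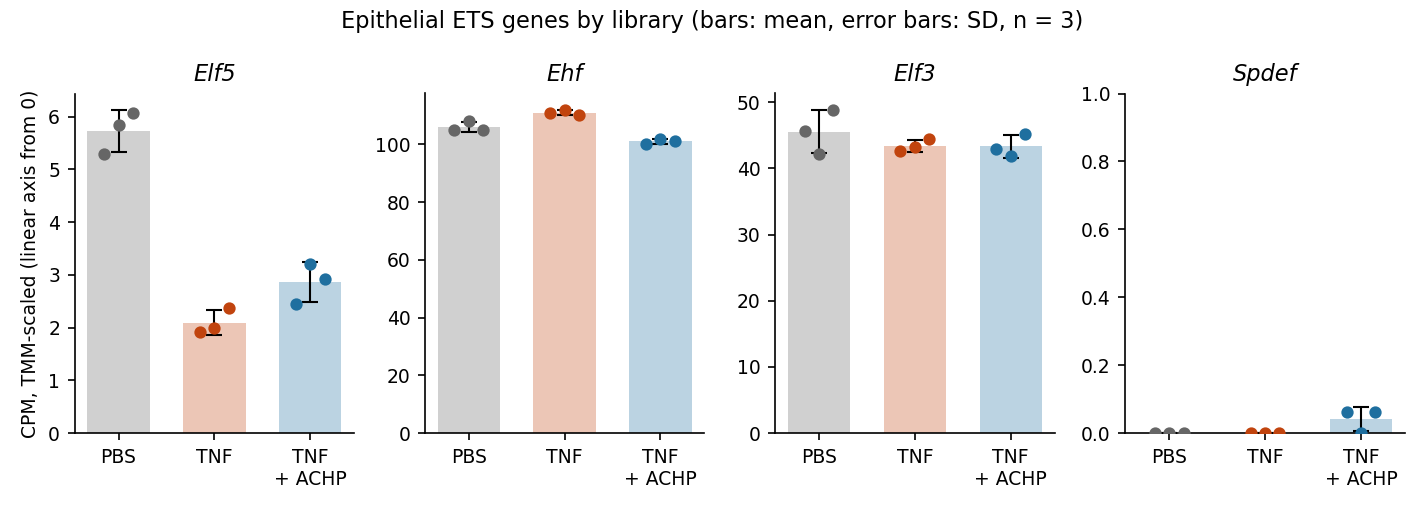
Level of each epithelial ETS gene in the 9 libraries, in CPM on linear axes from 0, with bars for the mean of 3 libraries, error bars for the SD and points for single libraries. Elf5 lies between 5.29 and 6.06 CPM in PBS and between 1.92 and 3.20 CPM in the treated libraries, Ehf and Elf3 stay within narrow ranges, and Spdef is at or near 0.

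With ACHP added, Elf5 was at 2.86 ± 0.377 CPM, or 49.9% of its PBS mean. The difference from TNF alone was 0.46 on the log2 scale (SE 0.20, 95% interval 0.05 to 0.87), and it did not pass the test across all genes (edgeR adjusted p = 0.18). In that comparison 7.17% of the genes tested were called, and in 12.4% every ACHP library was above every TNF library, as for Elf5. The same TNF libraries had served to choose Elf5 as a gene low with TNF, which by itself leans the comparison towards a rise. With a term for the libraries rich in neural transcripts the difference was 0.63 with an adjusted p of 0.44 in edgeR. PBS alone sets that term, as the only group with libraries of both kinds. With it edgeR called fewer genes over the whole table, 44 higher and 99 lower in this comparison, against 400 and 658 without it.

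Against PBS, the cells given TNF with ACHP had less Elf5, by a log2 difference of -0.998 (SE 0.17, 95% interval -1.36 to -0.64, edgeR adjusted p = 0.0013). In this comparison 6.04% of genes were called in either direction and 3.87% were called lower. All 3 ACHP libraries lay below all 3 PBS libraries, as was the case for 9.94% of genes. The PBS libraries were also those used to choose Elf5, which leans this comparison towards a lower value. The call was lost with the term for neural transcripts, where the difference was -0.88 (SE 0.25, edgeR adjusted p = 0.10). Over all genes, calls in this comparison also dropped with that term. Genes called higher went from 321 to 53, and fewer were called lower too. The lost call of Elf5 cannot be told apart from this general drop. For TNF against PBS, the difference was -1.51 with that term, within the 5 libraries rich in neural transcripts, and without PBS replicate 1. All of these fits compare TNF with PBS replicates 2 and 3, whose values served for selection, so they are not separate checks.

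Elf5 counts are also given relative to other epithelial transcripts. For TNF and PBS this rescales the values on which Elf5 was selected, so it describes them and adds no support. Per 10000 counts of the 23 epithelial structural genes, Elf5 had 6.20, 6.99 and 6.97 counts in PBS, 2.30, 2.40 and 2.81 with TNF, and 2.82, 3.70 and 3.24 with ACHP added. Per 100 counts of Ehf it had 5.05, 5.41 and 5.77 counts in PBS, 1.73, 1.79 and 2.15 with TNF, and 2.44, 3.14 and 2.89 with ACHP added. On both scales the PBS libraries stayed above all others, and the TNF and ACHP libraries nearly met on the first. Per 10000 counts of the principal cell genes, Elf5 had 144 to 164 counts in PBS, 57.2 to 68 with TNF and 76.1 to 97.8 with ACHP added, although Tfcp2l1, a transcription factor of the collecting duct, supplies most of that sum.

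Ehf (ENSMUSG00000012350, chr2:103093778-103133623, minus strand, GRCm39) was abundant and nearly constant. It stood at 105, 108 and 105 CPM in PBS, 111, 112 and 110 CPM with TNF, and 100, 102 and 101 CPM with ACHP added. The groups did not overlap, with TNF highest and ACHP lowest, but the whole span from the lowest to the highest library was small. Of all genes tested, 12.3% had every TNF library above every PBS library, and 13.3% had every ACHP library below every TNF library. The difference between TNF and PBS was 0.07 on the log2 scale (SE 0.04). Ehf fell by 0.14 on the log2 scale between TNF and TNF with ACHP (SE 0.04, 95% interval -0.21 to -0.06, edgeR adjusted p = 0.034), and it was the only member of the 3 tested that was called there, where 4.46% of all genes were called lower. That call did not survive the removal of any single TNF or ACHP library, was at an adjusted p of 0.092 in DESeq2, and was at an adjusted p of 0.58 with the term for neural transcripts, where the difference was -0.11. Against PBS, the difference with ACHP was -0.07 (SE 0.04, 95% interval -0.15 to 0.01, edgeR adjusted p = 0.36).

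Elf3 (ENSMUSG00000003051, chr1:135181313-135186306, minus strand, GRCm39) did not pass a test in any comparison made for it. It stood at 45.7, 42.2 and 48.8 CPM in PBS, 42.6, 43.2 and 44.4 CPM with TNF, and 43.0, 41.8 and 45.2 CPM with ACHP added. All 3 groups overlapped, and PBS spread the widest. TNF differed from PBS by -0.07 on the log2 scale (SE 0.06). The difference between ACHP and TNF was -0.00 (SE 0.06, 95% interval -0.13 to 0.12, edgeR adjusted p = 0.99), and that between ACHP and PBS was -0.07 (SE 0.06, 95% interval -0.20 to 0.05, edgeR adjusted p = 0.56). These intervals bound the size of any difference at this depth, and they do not show that the levels are equal. Of the exon length of Elf3, 7.31% is shared with the antisense gene Gm26642, whose own level was under 1 CPM in every group mean (0.754 in PBS, 0.938 with TNF and 0.786 with ACHP added).

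Spdef (ENSMUSG00000024215, chr17:27933326-27947929, minus strand, GRCm39) was at 0 counts in 7 libraries and at 1 count in ACHP replicates 1 and 3. A count of 0 allows up to 3 counts, which is 0.144 to 0.211 CPM depending on the library, a limit that covers counting error only. No fold is given, since all groups are at or under this limit. Of 13 genes that Spdef is known to act with in goblet cells, 4 were tested, the most abundant being Creb3l1 at 14.6 ± 0.825 CPM in PBS. Agr2, Agr3, Tff1, Tff3 and Muc5b, which encode secreted proteins and protein-folding factors of mucous cells, were at 0 in every library.

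Per kilobase of exon, Elf3 and Ehf were near each other and Elf5 was far below. Elf3 averaged 20.5 CPM per kb in PBS, 19.6 with TNF and 19.6 with ACHP added, and Ehf averaged 19.0, 19.9 and 18.1 CPM per kb. In single libraries their ratio ran from 0.961 to 1.17, so their order was not fixed. Elf5 averaged 0.976 CPM per kb in PBS, 0.357 with TNF and 0.487 with ACHP added. The level of Ehf was 18.3 to 20.9 times that of Elf5 in the PBS libraries, 49.0 to 61.1 times with TNF and 33.5 to 43.1 times with ACHP added. Among all 26 ETS genes of the table, ranked by this level, Elf3 and Ehf held ranks between 5 and 7 in every library, Elf5 held rank 17 or 18, and Spdef was among the last. Ets1, Ets2, Elk3 and Elf1, members of other branches of the family, stood at the top.

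The promoters of Elf5 and Elf3 are shown because TNF activates NF-kB. Sequences are the 250 bases before the annotated start in RefSeq (build GRCm38.p6), 5' to 3' on the gene's strand, and the intervals given here are on that build. Capitals mark GGAA or its complement TTCC, the ETS core on either strand, and in Elf3 also a match to the NF-kB consensus, which overlaps an ETS core. RefSeq lists 2 starts for Elf5, at chr2:103411848-103412097 and chr2:103423818-103424067 (both plus strand), and 1 for Elf3, at chr1:135258473-135258722 (minus strand).
Elf5 start 1: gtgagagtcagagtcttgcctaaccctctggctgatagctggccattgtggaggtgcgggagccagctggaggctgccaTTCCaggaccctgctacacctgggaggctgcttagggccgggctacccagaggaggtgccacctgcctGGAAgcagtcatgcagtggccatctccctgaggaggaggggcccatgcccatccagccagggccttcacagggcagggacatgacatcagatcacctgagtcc
Elf5 start 2: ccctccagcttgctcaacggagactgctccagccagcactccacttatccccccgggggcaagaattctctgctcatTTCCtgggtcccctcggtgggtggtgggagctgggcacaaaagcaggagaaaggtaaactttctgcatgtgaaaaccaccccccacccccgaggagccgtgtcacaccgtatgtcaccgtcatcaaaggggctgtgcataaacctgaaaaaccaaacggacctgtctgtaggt
Elf3: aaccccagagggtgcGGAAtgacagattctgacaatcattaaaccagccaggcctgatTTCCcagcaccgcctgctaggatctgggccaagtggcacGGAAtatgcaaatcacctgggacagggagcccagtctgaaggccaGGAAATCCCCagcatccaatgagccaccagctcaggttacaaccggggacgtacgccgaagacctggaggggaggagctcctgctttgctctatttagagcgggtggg
The Elf5 windows hold 2 and 1 ETS cores and no NF-kB match. The Elf3 window holds 4 ETS cores and 1 NF-kB match, which ends 99 bases before the start. The window of Spdef, not printed, holds 4 ETS cores and no NF-kB match. The short core is in 93.4% of the 32851 promoters of the table, the NF-kB consensus in 3.90% and the longer ETS site CCGGAAGT, which none of these windows holds, in 2.88%. A match describes the letters and not a bound site.

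The other ETS genes showed few and small differences. Of 22 listed, 18 were tested, and 1 rose with TNF, where 6.22% of all genes were called and 3.31% were called higher. It was Ets1, an ETS factor of lymphoid, vascular and stromal cells, which went from 227 ± 2.76 to 256 ± 9.08 CPM (log2 0.17, SE 0.03, edgeR adjusted p = 0.0043). The median log2 difference of the 18 was 0.04, against -0.002 over all genes. Between TNF with ACHP and TNF alone, 4.46% of all genes were called lower and 2.71% higher. In either direction, 3013 of the 14747 genes had an unadjusted p under 0.05. Of the 18 genes Ets1 (-0.16) and Elk3 (-0.24), a factor that represses transcription until it is phosphorylated, were lower (median of the 18 -0.07; with the term for neural transcripts Elk3 was still called and Ets1 was not, at an edgeR adjusted p of 0.36), and 0 were higher in edgeR or DESeq2, with 2 higher at an unadjusted p under 0.05. Against PBS, where 2.18% of all genes were called higher, Etv4, a factor of the branching ureteric bud in mouse kidney development, was the 1 gene called, at 0.23 higher (edgeR adjusted p = 0.028), and DESeq2 called 0 of the 18. Log2 differences of the 18 genes with TNF lay between -0.43 and 0.18, so Elf5 lay outside that range, as its selection would place it.

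**Figure D2:**
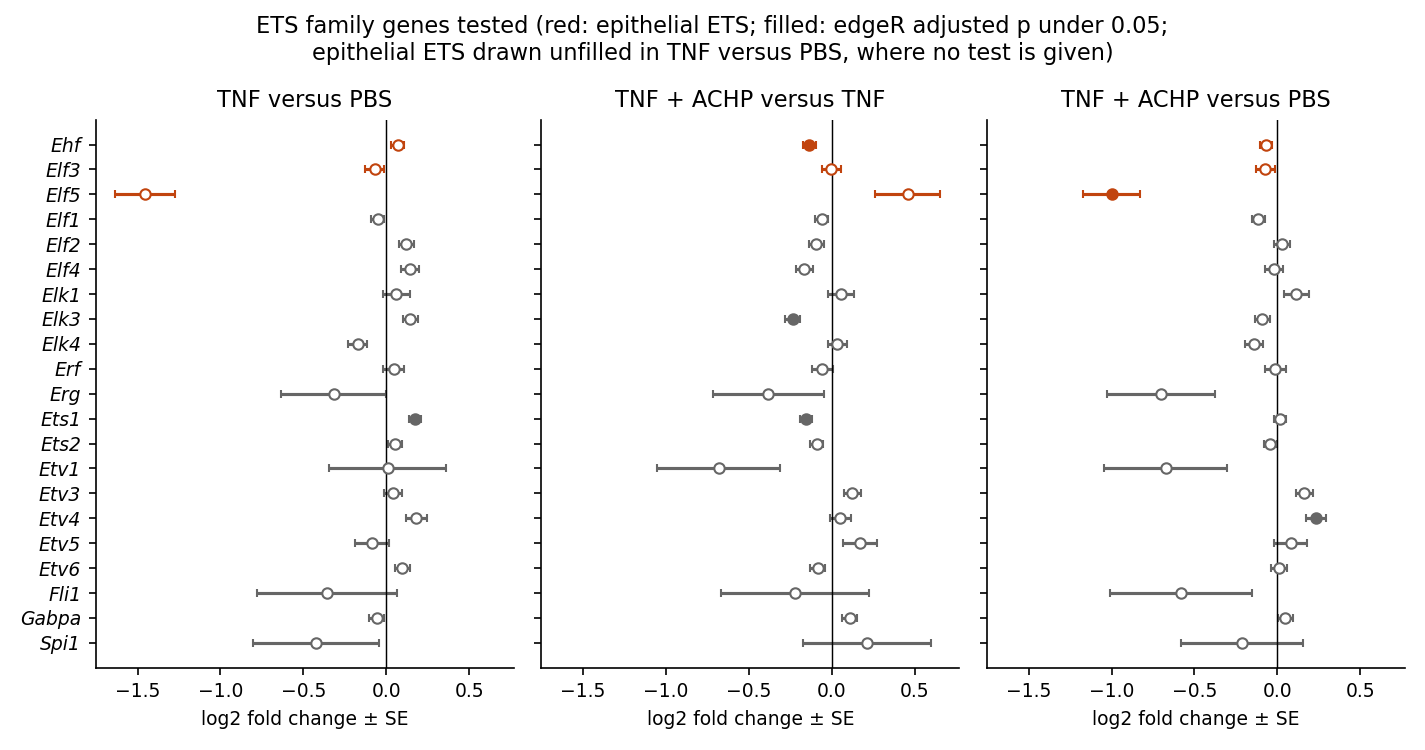
Log2 fold change with SE (x axis) of the 21 ETS genes tested (y axis) in the 3 comparisons, with epithelial ETS genes in red and filled points at an edgeR adjusted p under 0.05 (epithelial ETS genes are unfilled in TNF versus PBS, where no test is given). Elf5 stands at -1.46 with TNF and at -0.998 with ACHP against PBS, while the other 18 genes lie between -0.70 and 0.23 in all 3 panels.

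Principal cell genes, with which Elf5 is found in the kidney, changed in both directions with TNF. Of 10 tested, 4 fell and 1 rose, where 2.91% of all genes were called lower and 3.31% higher, and the median was -0.33 on the log2 scale. Cldn8, a tight junction protein of the distal nephron, fell from 8.71 ± 2.49 to 4.39 ± 0.724 CPM (log2 -1.01, SE 0.19, edgeR adjusted p = 0.0023). Scnn1a and Scnn1b, subunits of the epithelial sodium channel, fell by 0.49 and 0.74 on the log2 scale. Gata3, a transcription factor of the ureteric lineage, fell by 0.25. With the term for neural transcripts Gata3 was not called (-0.21, edgeR adjusted p = 0.11), and Nr3c2 was (-0.65, edgeR adjusted p = 0.031). Hsd11b2, the enzyme that inactivates glucocorticoids in these cells, rose from 6.83 ± 0.295 to 10.3 ± 0.531 CPM (log2 0.59, SE 0.10, edgeR adjusted p = 0.0010). Tfcp2l1, the most abundant of the list, was at 249 ± 5.25 CPM in PBS and 250 ± 5.53 CPM with TNF. Some markers of other cell types were lower in the same libraries. Those of the proximal tubule (8 listed, 4 tested, 2 lower and 0 higher) summed to 44.4 to 48.3 CPM in PBS and 30.4 to 34.9 CPM with TNF, with Ggt1 at -0.57 and Aqp1 at -0.99. Those of fibroblasts (7 listed, 6 tested, 2 lower and 0 higher) summed to 248 to 265 CPM and 198 to 212 CPM. The 2 were Col1a1 at -0.39 and Col1a2 at -0.24, while the 6 genes ran from -0.39 to 1.09, with a median of -0.21. At an unadjusted p under 0.05 in edgeR, 1 of the 6 was higher and 2 were lower. Over all 14747 genes 2763 had such a p, in either direction. Of the urothelial markers (8 listed, 4 tested) Psca was lower, at -1.04, and their sum was 74.9 to 84.7 CPM in PBS and 80.5 to 84.3 CPM with TNF. Their part in the levels of Elf5 and the principal cell genes was not tested.

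With ACHP added to TNF, 3 principal cell genes were lower, Kcnj10 (-1.42), Aqp4 (-1.06) and Tfcp2l1 (-0.12). In edgeR and DESeq2 0 were higher, against 2 at an unadjusted p under 0.05. Over all genes edgeR called 2.71% higher and 4.46% lower, and 3013 of 14747 had an unadjusted p under 0.05 in either direction. The median of the 10 was -0.11. Kcnj10 encodes a potassium channel and Aqp4 a water channel, both also abundant in astrocytes. The neural markers were lower in the same libraries, and their part in these differences was not tested and cannot be told apart from that of ACHP. Against PBS, edgeR called 1 higher, Hsd11b2 (0.44), and 5 lower, where 2.18% of all genes were called higher and 3.87% lower. The 5 were Kcnj10 (-1.67), Aqp4 (-1.28), Nr3c2 (-0.63), which encodes the mineralocorticoid receptor, Scnn1a (-0.32) and Tfcp2l1 (-0.12). The median of the 10 was -0.49. DESeq2 called 0 higher and 4 lower in this comparison, against 209 higher and 454 lower of 18060 over all genes. With the term for neural transcripts, edgeR called 0 of the 10 genes in either comparison with ACHP. Calls over all genes also dropped with that term in both comparisons, as given above for Elf5. The absence of calls among these 10 genes cannot be told apart from that drop.

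**Figure D3:**
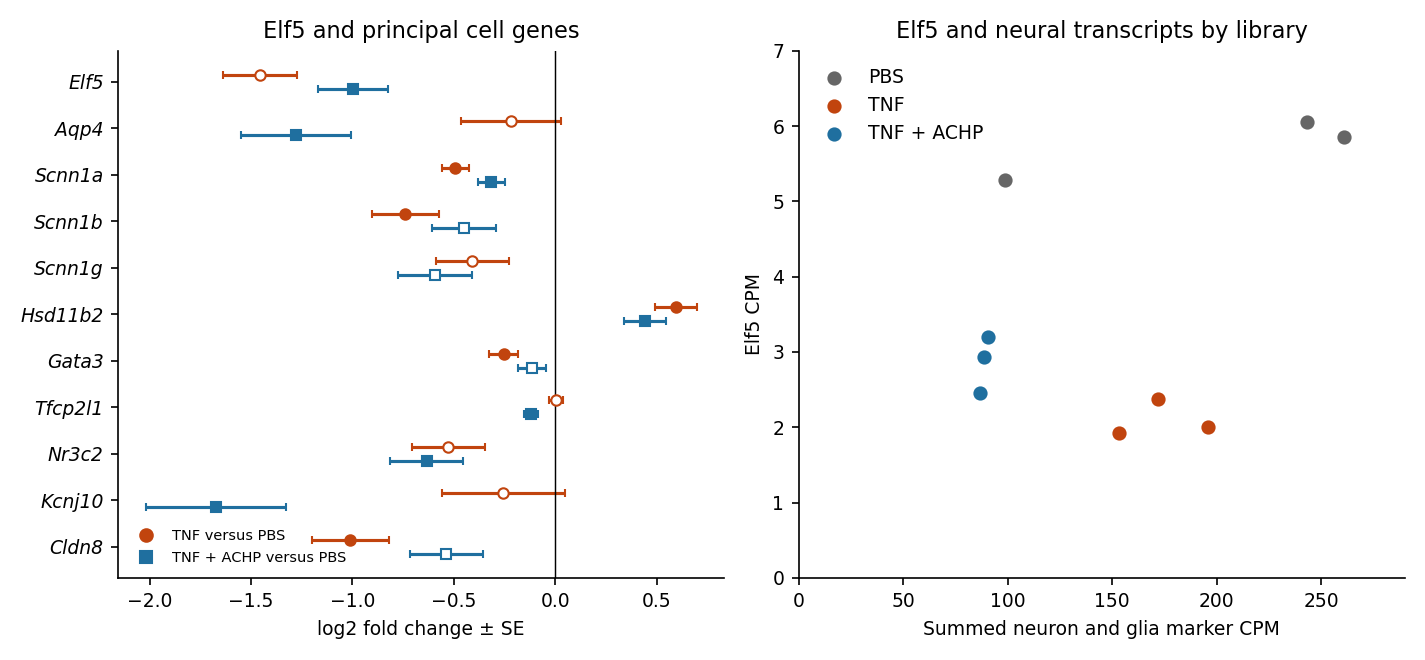
Left, log2 fold change with SE of Elf5 and the 10 principal cell genes tested, for TNF versus PBS (circles) and TNF with ACHP versus PBS (squares), filled at an edgeR adjusted p under 0.05 except for Elf5 with TNF, where no test is given. Right, Elf5 CPM of each library against its summed neuron and glia marker CPM, where the 3 PBS libraries lie above 5 CPM at both 98.9 and 261 CPM of neural markers and all treated libraries lie at or below 3.20 CPM.

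Of 43 general epithelial regulators and structural genes, all were tested, and 5 fell with TNF, against 2.91% of all genes called lower. In edgeR 0 rose, against 2 in DESeq2 and 4 at an unadjusted p under 0.05 in edgeR. Of all 14747 genes, 2763 had an unadjusted p under 0.05, in either direction, and DESeq2 called 394 higher and 327 lower of 11564. Among the 5 that fell were the transcription factors Klf5 (-0.26), Pax2 (-0.29) and Tfap2a (-0.33) and the tight junction protein Ocln (-0.18). The median was -0.07. Adding ACHP to TNF left 5 of them higher, namely Pax8 (0.18), a kidney lineage factor, the kidney cadherin Cdh16 (0.22) and the simple-epithelium keratins Krt19 (0.27), Krt18 (0.20) and Krt8 (0.17). In the same comparison Grhl3 (-1.02) and Zfp750 (-0.74), factors of the skin barrier, were lower. With the term for neural transcripts Cdh16 (0.28) was the 1 gene of these 7 still called in edgeR, and Grhl3 was at -0.35 (adjusted p = 0.83). Calls over all genes also dropped with that term, to 44 higher and 99 lower from 400 and 658. Against PBS, Cdh16 and Krt19 were higher, both by 0.15 (edgeR adjusted p = 0.10 and 0.29 with that term), and 0 were lower in edgeR (1 in DESeq2, and 9 at an unadjusted p under 0.05 in edgeR). Of all 14747 genes, 2773 had an unadjusted p under 0.05 there, in either direction. In the same comparison edgeR called 2.18% of genes higher and 3.87% lower, and DESeq2 called 209 higher and 454 lower of 18060.

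Genes reported as direct or indirect targets of Elf3, in human cells or other mouse tissues, were called in part with TNF, and Elf3 itself lay within 41.8 to 48.8 CPM in all libraries. Of 9 listed, 8 were tested, and 3 rose and 1 fell, where 3.31% of all genes were called higher and 2.91% lower. Ccl20, a chemokine for dendritic and T cells, rose from 24.6 ± 0.745 to 80.5 ± 6.36 CPM (log2 1.71, SE 0.06, edgeR adjusted p = 4.8e-13), and it stood at 30.8 ± 1.81 CPM with ACHP added. Mmp13, a collagenase, rose from 5.50 ± 1.65 to 15.9 ± 1.72 CPM (log2 1.51, SE 0.16, edgeR adjusted p = 2.9e-06), and it stood at 2.33 ± 0.509 CPM with ACHP added. Ptgs2, which encodes the inducible cyclooxygenase, rose by 0.15 on the log2 scale. Tgfbr2, the TGF-beta receptor that Elf3 regulates in mouse intestine, fell by 0.13. Ptgs2 and Tgfbr2 were not called with the term for neural transcripts (0.12 and -0.11, edgeR adjusted p = 0.08 and 0.097), while Ccl20 and Mmp13 were. In the cells given both agents, compared with TNF alone, Tgfbr2 was higher (0.17) and Ccl20 (-1.39) and Mmp13 (-2.75) were lower, where 2.71% of all genes were called higher and 4.46% lower. With the term for neural transcripts Ccl20 (-1.36) and Mmp13 (-1.98) stayed called and Tgfbr2 did not (edgeR adjusted p = 0.51). Against PBS, Ccl20 (0.32) and the iron-binding protein gene Lcn2 (0.21) were higher and Mmp13 (-1.24) was lower, where 2.18% of all genes were called higher and 3.87% lower. With that term none of these 3 was called, at edgeR adjusted p-values of 0.17 for Ccl20, 0.19 for Lcn2 and 0.35 for Mmp13, whose difference was then -0.66. Calls over all genes dropped with it as well.

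Among the mammary genes that Elf5 acts with, the milk protein genes Csn2, Csn1s1 and Lalba were at 0 in every library, while the signalling factor Stat5b was at 20.9 ± 0.876 CPM in PBS. Of the 8 genes 4 were tested, of which 0 were called with TNF and 0 with ACHP against TNF in edgeR or DESeq2 (0 and 1 at an unadjusted p under 0.05). Over all genes edgeR called 6.22% and 7.17% in these comparisons, and 2763 and 3013 of 14747 had an unadjusted p under 0.05. With ACHP against PBS 3.87% were called lower. Counts among 4 genes cannot be told apart from such shares. Prlr, the prolactin receptor, stood at 2.03 ± 0.424 CPM in PBS, 1.67 ± 0.224 CPM with TNF and 0.893 ± 0.195 CPM with ACHP added, and was lower with ACHP than in PBS (log2 -1.16, SE 0.30, edgeR adjusted p = 0.024), a difference that DESeq2 did not call and that had an edgeR adjusted p of 0.088 with the term for neural transcripts. Of the Spdef goblet list, Creb3l1, a stress-responsive factor of secretory cells, was lower with ACHP than with TNF in edgeR (-0.34), was not called in DESeq2 and had an edgeR adjusted p of 0.47 with that term. No other tested gene of that list was called in any of the 3 comparisons by either tool, and 1 was higher with TNF and 1 other lower with ACHP against TNF at an unadjusted p under 0.05. The goblet list too had 4 tested genes, too few to set its counts apart from the shares of all genes.

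Elf5 and Ehf are neighbours, transcribed away from each other with 108409 bases between them. Within 500 kb of Elf5, 7 genes were tested. Of these 0 were called with TNF, 1 was called with ACHP against TNF, which was Ehf itself, and 0 were called with ACHP against PBS. Over all genes edgeR called 6.22%, 7.17% and 6.04% in these comparisons, and the counts among 7 genes are near those shares. At an unadjusted p under 0.05 the counts among the 7 were 0, 1 and 1 (2763, 3013 and 2773 of all 14747 genes), and DESeq2 called 0 in each comparison. Cat, the catalase gene, which lies closest to Elf5 at 2.9 kb beyond its end and on the opposite strand, stood at 96.2 ± 3.87 CPM in PBS, 93.0 ± 3.23 with TNF and 91.2 ± 1.16 with ACHP added. The log2 differences with TNF were -0.02 for Pdhx, 0.04 for Apip, 0.16 for Abtb2, 0.09 for Nat10 and 0.01 for Caprin1. Around Ehf, Cd44, a hyaluronan receptor 361.8 kb away, rose with TNF from 1060 ± 7.45 to 1483 ± 22.6 CPM (log2 0.48, SE 0.03, edgeR adjusted p = 8.0e-10). Slc1a2, the astrocyte glutamate transporter gene, was lower with ACHP than with TNF by 4.29 on the log2 scale (25.6 ± 8.50 against 1.29 ± 0.895 CPM), and it is one of the neural markers.

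**Figure D4:**
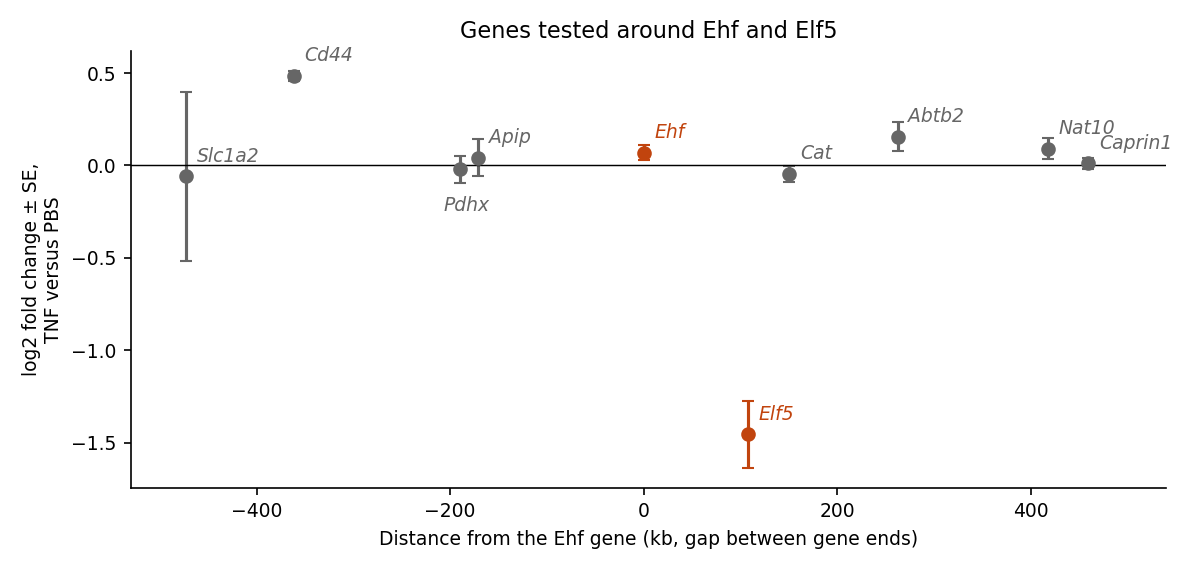
Log2 fold change of TNF versus PBS with SE (y axis) for each tested gene within 500 kb of Ehf, by the distance between gene ends in kb (x axis, 0 at Ehf). Elf5 stands at -1.46, Cd44 at 0.48, and the other genes lie between -0.06 and 0.16.

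Around Elf3, 15 genes were tested, of which Ppp1r12b, a regulatory subunit of myosin phosphatase, rose with TNF from 34.2 ± 1.00 to 56.1 ± 2.68 CPM (log2 0.71, SE 0.06) and Shisa4 fell by 0.18 on the log2 scale in edgeR and was not called in DESeq2. Rnpep, 4.1 kb away, stood at 50.2 ± 4.22 CPM in PBS and 50.8 ± 1.92 CPM with TNF. Around Spdef, 15 genes were tested, and Hmga1, a chromatin protein gene 150.7 kb away, was the 1 gene called with TNF, at 97.2 ± 4.52 and 114 ± 4.59 CPM (log2 0.24, SE 0.05, edgeR adjusted p = 0.0054). With TNF 3.31% of all genes were called higher and 2.91% lower, so 1 call in a direction among 15 genes is near those shares.

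Across the 9 libraries, which fall into 3 groups, the genes whose levels followed a member most closely were found by Pearson's r on log2(CPM + 0.5) over 10165 genes. For Elf5 these were Mal2 (0.99), Wwc2 (0.98), Gsr (0.98), Mme (0.98) and Rnf128 (0.97). Their log2 differences with TNF lay between -0.26 and -0.17, so they matched the order of the libraries and not the size of the difference. For Ehf they were Nedd9 (0.98), Mmp13 (0.98), Ctsc (0.97), Mmp12 (0.97) and Angpt4 (0.96). The 5 genes followed the order TNF, PBS, TNF with ACHP from highest to lowest mean, with Mmp12 at 22.7, 10.7 and 5.87 CPM. For Elf3 they were Ggact (0.93), Spin1 (0.92), Spcs2 (0.91), Arhgef19 (0.90) and Atp6v1a (0.89). All of these are the highest of 10165 values over only 9 libraries, so r is high in part through the search. How high it would be among unrelated genes was not tested. For Elf5, r also rests on the PBS and TNF values that served for selection. Between members r was -0.26 for Elf5 and Ehf, 0.48 for Elf5 and Elf3, and -0.14 for Ehf and Elf3.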

How the data were processed

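Total RNA was sequenced from 9 libraries in 3 groups, with group and replicate number read from each title. The deposited table holds raw counts per gene. The submitters' processing notes name STAR, featureCounts and DESeq2, and mm10 as the build. Per the file headers, counts were made by featureCounts 2.0.1 on Ensembl 109 for GRCm39, and the intervals in the table follow GRCm39, so gene coordinates are on that build. At the settings in the header, reads that overlap more than 1 gene are not counted and strand is not used. The exon lengths deposited in the table gave CPM per kb. Symbols were found for 52029 of 57010 identifiers, with 99.6% of the counts.

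The tools were edgeR 4.0.16, DESeq2 1.42.0 and limma 3.58.1 under R 4.3.3. The edgeR filter filterByExpr kept 14747 genes, TMM factors were 0.993 to 1.01, and edgeR's quasi-likelihood test was run on 1 fit of all 9 libraries with a coefficient for each group (common dispersion 0.00161, a variation of 4.01% between replicates). Adjusted p-values follow Benjamini and Hochberg across those 14747 genes, and under 0.05 a gene is said to be called, or to have risen or fallen. DESeq2 called 394 genes higher and 327 lower of 11564 with TNF. It called 247 and 490 of 18060 with ACHP against TNF, and 209 and 454 of 18060 with ACHP against PBS. Simulated counts with known changes were used to check the code. Replicates differed by more than sampling noise (chi-square over degrees of freedom 1.87 to 6.53).

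The members, the 19 gene lists and the tests were chosen with earlier results of these data known. The text names the 4 members, Vcam1 and Nfkbia, the called genes of each list up to the 6 with the largest change, genes near the members, and the 5 genes most like each member among those with at least 5 CPM on average. Neighbours of Elf3 and Spdef are given as counts with the genes called for TNF. Rnpep, genes at 0 counts, and list genes named as not called were picked after their values were seen. A result for 1 gene that this rule would name is left out here. Promoters come from RefSeq.

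Alternatives were DESeq2, RLE factors, total counts alone, 2 other filters, fits restricted to the 6 libraries compared, a block for replicate number, leaving out each library, a term or a covariate for neural transcripts, and an adjusted p under 0.01. Fits within the 5 libraries rich in neural transcripts and within the 4 with few were added after seeing the data.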

Additional observations from a re-analysis of the deposited data

How the results depend on the processing

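The differences of the 3 tested members kept their sign in every alternative run, apart from Elf3 between ACHP and TNF, which lay at 0. Counts of Elf5 were 30 to 112 per library, so its replicate spread includes sizeable counting error. Where a value changed, the cause was not tested.

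For Elf5, leaving out 1 library gave -1.56 to -1.39 (TNF against PBS), 0.36 to 0.55 (ACHP against TNF) and -1.10 to -0.91 (ACHP against PBS). The last was no longer called with the neural term (-0.88), the neural covariate (-0.85, adjusted p = 0.17) or the 4 libraries with few neural transcripts (-0.88). In the last fit PBS is 1 library, assumed to vary like the 3 ACHP libraries, and it rests on the same contrast as the neural term. For Ehf the ranges were 0.06 to 0.08, -0.14 to -0.13 and -0.08 to -0.05. The second lost its call without any one of the 6 libraries compared (adjusted p up to 0.12), and also with no filter (-0.13), the neural term (-0.11), the covariate (-0.12), DESeq2 (-0.14) and the 0.01 threshold (-0.14). For Elf3 the ranges were -0.13 to -0.01, -0.03 to 0.02 and -0.13 to -0.02.

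Pairing of the samples by replicate number was not seen across all groups, and it is not excluded. Same-numbered libraries deviated with correlations of -0.12 to 0.17, and differently numbered ones of -0.20 to 0.23. Between PBS and TNF alone, same-numbered libraries were at 0.17, 0.15 and 0.00, and differently numbered ones at -0.20 to 0.10. With the replicate block, Elf5 was at -1.45 (TNF against PBS) and 0.45 (ACHP against TNF), with the same value to 2 decimals for ACHP against PBS, other ETS genes called with TNF went from 1 to 2, and epithelial genes called with ACHP against PBS went from 2 to 4.

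Other ETS genes called with TNF (1) became 2 with no filter, the neural term, the covariate or the 6 libraries of the comparison, and 3 within the 5 libraries rich in neural transcripts, and 0 to 2 without 1 library. With ACHP against TNF (2) they became 1 with the neural term or covariate, and 1 to 2 without 1 library. Against PBS (1) they became 0 with the covariate, the 6 libraries, the 4 libraries, DESeq2 or the 0.01 threshold, and 0 to 1 without 1 library.

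Principal cell genes called with TNF (5) were 4 to 5 without 1 library. With ACHP against TNF (3) they became 0 with the neural term, the covariate or the 0.01 threshold, and 0 to 3 without 1 library (0 without TNF replicate 2 and without ACHP replicate 2 or 3). Against PBS (6) they became 0 with the neural term, the covariate or the 4 libraries, 3 at the 0.01 threshold, and 4 to 7 without 1 library.

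Epithelial genes called with TNF (5) became 8 with the 6 libraries or DESeq2, 3 at the 0.01 threshold, and 2 to 7 without 1 library. With ACHP against TNF (7) they became 11 with no filter or the 6 libraries, 1 with the neural term, 4 with the covariate or the 0.01 threshold, and 4 to 9 without 1 library. Against PBS (2) they became 5 with no filter, 0 with the neural term, the covariate, the 6 libraries, the 4 libraries or the 0.01 threshold, and 0 to 5 without 1 library. RLE factors and total counts alone moved the median of all genes by under 0.02 on the log2 scale.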
